A study of Sus scrofa with 21 samples.

Results

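The genes described here are division cyclins and mitotic kinases with the checkpoint and anaphase factors that work beside them, a group of 10 genes picked by symbol: CDC20, CCNA1, CCNB1, CCNB2, CDK1, CDC25C, PLK1, AURKA, AURKC and BUB1B. Of these, 7 could be paired with an Ensembl pig gene identifier among the 25880 genes counted, and CDC25C, AURKA and AURKC had no identifier paired with them and were not analysed here. RNA of testis tissue was sequenced with 1 library per boar in 13 purebred Landrace and 8 purebred Duroc boars that served at an artificial insemination station. In contrast (i), 4 Landrace boars with high sperm hyperactivity at day 0 (L5, L6, L7 and L8) were set against 4 with low hyperactivity (L1, L2, L3 and L4), hyperactivity being the share of ejaculated sperm with the vigorous, non-linear swimming pattern. In contrast (iii), 3 Landrace boars whose hyperactivity changed strongly during 96 h of liquid storage (L7, L13 and L15) were set against 4 in which it changed little (L2, L9, L10 and L12). L2 and L7 are in both contrasts. The 8 Duroc boars were labelled high (D1, D2, D3, D4 and D5) or low (D6, D7 and D9), and every Duroc direction below is that of these deposited labels. Matched by name, the study's own list of boars gives 7 of these 8 the opposite group. However, that list gives D2 and D3 fewer reads than their 84446404 and 125576407 counts on genes here. At least these names therefore cannot stand for the same boars in both, and the match by name does not show that the labels are reversed. Whether the groups agree under another numbering of the boars was not tested. No boar had been treated, and the groups are boars chosen at the ends of a natural range. The whole testis was sampled, in which a lower number of cells of a type and less RNA per cell cannot be told apart.

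Entry into cell division is driven by CDK1, a kinase that acts when bound to an A-type or a B-type cyclin. PLK1 helps to turn it on and to build the spindle. The division ends when CDC20 activates the anaphase-promoting complex, which marks the B cyclins and securin, the inhibitor of the protease that cuts cohesin between sister chromatids, for destruction, and BUB1B, part of the spindle checkpoint, holds CDC20 back until every chromosome is attached. In the testis these proteins serve the divisions of spermatogonia and the meiotic divisions of spermatocytes, and CCNA1 is the A-type cyclin typical of male germ cells in meiosis.

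The members lie apart in the genome, on the coordinates of the RefSeq annotation of Sscrofa11.1. CDC20 (ENSSSCG00000003949) spans chr6:167886266-167890587, CCNA1 (ENSSSCG00000009354) chr11:12396149-12405357, CCNB1 (ENSSSCG00000029326) chr16:47338239-47348385 and CCNB2 (ENSSSCG00000004588) chr1:112907047-112942218. BUB1B (ENSSSCG00000004782), at chr1:131093026-131143840, shares a chromosome with CCNB2. CDK1 (ENSSSCG00000010214), at chr14:64233945-64255290, overlaps the span of LOC100152879, and PLK1 (ENSSSCG00000026748), at chr3:22537814-22550901, overlaps that of ERN2. Reads were counted by strand and reads that fit more than 1 gene were not counted, at 0.698% to 0.837% of reads per library, but what the overlaps do to the CDK1 and PLK1 counts was not tested.

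Depth ranged from 41358671 to 125576407 counts on genes per library, or 41.4 M to 126 M. The median depth was 82.9 M in the high and 67.3 M in the low group of contrast (i), 81.3 M and 54.8 M in those of contrast (iii), and 55.6 M and 54.9 M in the Duroc boars labelled high and low. Meiotic spermatocyte markers such as SYCP3 (273 to 763 CPM, read counts scaled to library size after TMM normalization over all libraries) and spermatid markers such as TNP1 (3363 to 8262 CPM) were abundant in all 21 libraries. OVOL2 of the spermatocyte list, AMH of the Sertoli cell list and CSF1R and CD14 of the macrophage list stayed under 1 CPM throughout. The library of L13 stood apart, with summed Sertoli cell markers of 495 CPM against 183 to 293 CPM in the other libraries, and summed elongating spermatid markers of 6183 CPM against 7598 to 14946 CPM. Results that rest on L13 are therefore also given without it.

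The members were chosen with contrasts (i) and (iii) known, CDC20 being named for its lower level in both high groups, so their values in these contrasts describe the boars and test nothing. CDC20 and PLK1 were lower in the high groups of both contrasts, whereas the high and low groups overlapped for the A and B cyclins in both. In the Duroc boars and between the breeds, which the choice did not use, no member passed the test. Across boars, CDC20 varied with PLK1, and BUB1B and CDK1 were high where CDC20 was low.

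**Figure D1:**
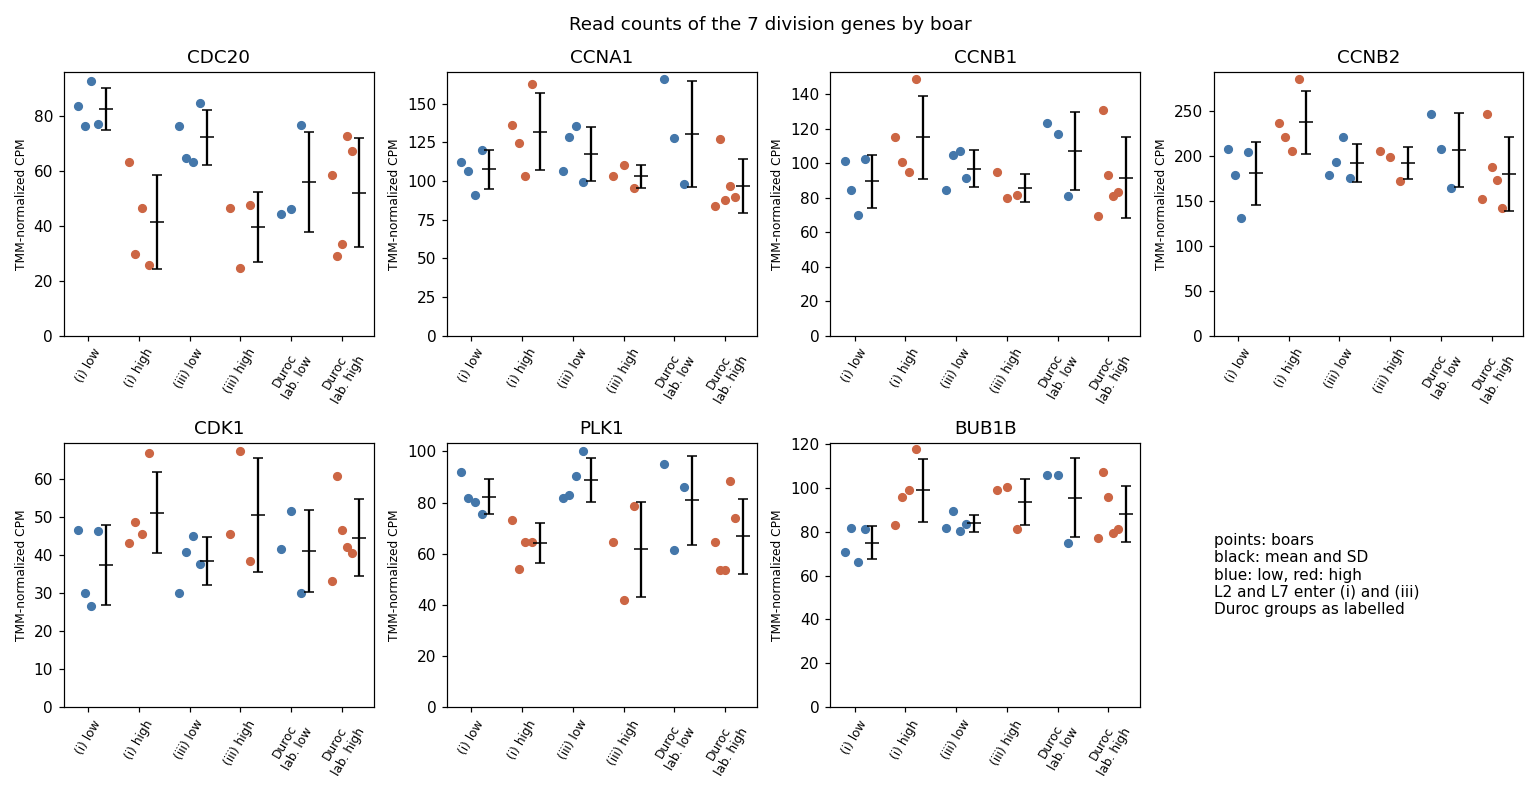
Levels of the 7 members in TMM-normalized CPM (vertical axes, each from 0 and on its own scale) for the boars of 6 groups (horizontal axis, low groups blue, high groups red); points are boars, and black marks are group means with SD. CDC20 shows the widest spread as a ratio, its highest boar having 3.75 times the level of its lowest. All 4 high boars of contrast (i) lie at 25.8 to 63.3 CPM and all 4 low boars at 76.2 to 92.6 CPM.

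CDC20, the activator of the anaphase-promoting complex, had 83.7, 76.2, 92.6 and 76.97 CPM in L1, L2, L3 and L4, the low boars of contrast (i). In the high boars L5, L6, L7 and L8 it had 63.3, 29.7, 46.4 and 25.8 CPM. The groups did not overlap, L6 and L8 were the lowest, and the mean ± SD was 41.3 ± 17.2 CPM in the high group (n = 4) against 82.3 ± 7.60 CPM in the low group (n = 4), a log2 fold change of -1.06 ± 0.25 (SE). The values rested on 2060 counts in L8 to 8322 counts in L3, so counting error was small beside the spread between boars. In contrast (iii), CDC20 had 76.2, 64.6, 63.2 and 84.6 CPM in the low boars L2, L9, L10 and L12, and 46.4, 24.7 and 47.4 CPM in the high boars L7, L13 and L15. These groups did not overlap either, and the log2 fold change was -0.88 ± 0.23 (SE). Without L13 it was -0.63, and without the boars that both contrasts share, L2 and L7, it was -1.21 in contrast (i) and -0.996 in contrast (iii).

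PLK1, the polo-like kinase, had 91.9, 81.7, 80.2 and 75.4 CPM in L1, L2, L3 and L4 and 73.2, 54.1, 64.5 and 64.7 CPM in L5, L6, L7 and L8. Every high boar was below every low boar, although L5 and L4 differed by little, and the log2 fold change was -0.43 ± 0.13 (SE). In contrast (iii), its level was 81.7, 82.8, 90.6 and 100.3 CPM in L2, L9, L10 and L12 and 64.5, 41.8 and 78.7 CPM in L7, L13 and L15. Here too the groups did not overlap, with L13 the lowest of all 21 libraries, and the log2 fold change of -0.54 ± 0.20 (SE) became -0.32 without L13.

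CDK1, the kinase that the cyclins activate, had 46.6, 30.1, 26.5 and 46.3 CPM in L1, L2, L3 and L4 and 43.2, 48.7, 45.6 and 66.8 CPM in L5, L6, L7 and L8. The groups overlapped, since L1 and L4 were as high as L5 and L7, and the log2 fold change was 0.38 ± 0.21 (SE). It was 0.22 without L3, 0.24 without L2, 0.25 without L8 and 0.22 with libraries scaled by size only. In contrast (iii), CDK1 had 30.1, 40.9, 44.9 and 37.7 CPM in L2, L9, L10 and L12 and 45.6, 67.3 and 38.4 CPM in L7, L13 and L15. The groups overlapped again, and the log2 fold change of 0.38 ± 0.21 (SE) rested largely on L13, being 0.13 without it.

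The B cyclin CCNB1 had 101, 84.3, 69.9 and 102 CPM in L1, L2, L3 and L4 and 115, 101, 95.1 and 149 CPM in L5, L6, L7 and L8. Its partner CCNB2 had 208, 179, 131 and 204 CPM in L1, L2, L3 and L4 and 236, 222, 206 and 286 CPM in L5, L6, L7 and L8. For both cyclins L8 was the highest and L3 the lowest of the 8 boars and the groups overlapped, at log2 fold changes of 0.29 ± 0.17 and 0.32 ± 0.16 (SE). Without L3 these values were 0.16 and 0.17, and with libraries scaled by size only they were 0.13 and 0.17. Without L8 that of CCNB1 was 0.16. In contrast (iii), the level of CCNB1 was 80.1 to 95.1 CPM in the 3 high boars and 84.3 to 106.9 CPM in the 4 low boars, and that of CCNB2 was 172 to 206 CPM against 176 to 221 CPM. The groups overlapped for both, at log2 fold changes of -0.19 ± 0.14 and -0.01 ± 0.13 (SE). That of CCNB1 was -0.33 without L2 and L7. That of CCNB2 turned to 0.064 without L15, 0.063 without L10 and 0.0057 with libraries scaled by size only.

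CCNA1, the germline A-type cyclin, had 112, 106, 90.9 and 120.2 CPM in L1, L2, L3 and L4 and 136, 125, 103 and 163 CPM in L5, L6, L7 and L8. The groups overlapped through L7, and the log2 fold change was 0.22 ± 0.15 (SE), being 0.12 without L3 or without L8 and 0.06 when libraries were scaled by their size only. In contrast (iii), CCNA1 had 103, 110.3 and 95.2 CPM in L7, L13 and L15 against 99.3 to 135.8 CPM in the low boars, a log2 fold change of -0.20 ± 0.14 (SE). With 1 boar left out, it ran from -0.25 without L12 to -0.13 without L10.

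BUB1B, the checkpoint kinase that restrains CDC20, had 70.8, 81.6, 66.3 and 81.2 CPM in L1, L2, L3 and L4 and 83.0, 95.9, 99.0 and 118 CPM in L5, L6, L7 and L8. The groups did not overlap, with a narrow gap between L2 and L5, and the log2 fold change was 0.33 ± 0.14 (SE), or 0.17 with libraries scaled by size only. In contrast (iii), its level was 81.6, 89.6, 80.5 and 83.7 CPM in L2, L9, L10 and L12 and 99.0, 100.5 and 81.5 CPM in L7, L13 and L15. L15 fell within the low group, and the log2 fold change was 0.15 ± 0.13 (SE), being 0.24 without L15 and 0.10 without L13.

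In contrast (i), the quasi-likelihood test of edgeR, adjusted by Benjamini-Hochberg over 12979 genes, called 2682 genes, or 20.7%, at an adjusted p under 0.05, with 626 higher (4.82%) and 2056 lower (15.8%) in the high group. Of the 7 members, 2 were called, CDC20 and PLK1, both lower, and since the choice of members used this contrast nothing is read from that count. Groups that did not overlap were found for 3 members, CDC20 and PLK1 lower and BUB1B higher, beside 31.4% of all genes tested (16.6% lower and 14.8% higher). Without L3, and likewise without L6, 1 gene and no member (0 of 7) was called. PLK1 lost its call in 6 of the 8 fits without 1 boar and with no filter on low counts. With libraries scaled by size only, the median log2 fold change of all genes moved from 0.03 to -0.12 and the calls from 626 higher and 2056 lower to 104 higher and 2458 lower. DESeq2 called 1458 genes higher and 2464 lower. The median over the 7 members was 0.29, with 5 of the 7 above 0 and 2 below.

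In contrast (iii), the same test called 0 of 12824 genes (0%), beside 2540 genes at an unadjusted p under 0.05, 64 by the likelihood ratio test and 116 by DESeq2. Accordingly 0 of the 7 members were called by edgeR, and DESeq2 called 1, CDC20. The study itself reported CDC20 as differentially expressed in both Landrace contrasts with its likelihood ratio test. The likelihood ratio test run here did not call it in contrast (iii). The groups did not overlap for 2 members, CDC20 and PLK1, both lower, beside 16.4% of all genes tested (8.47% lower). The median over the members was -0.19, with 2 of the 7 above 0 and 5 below, beside a median of 0.00 over all genes tested.

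**Figure D2:**
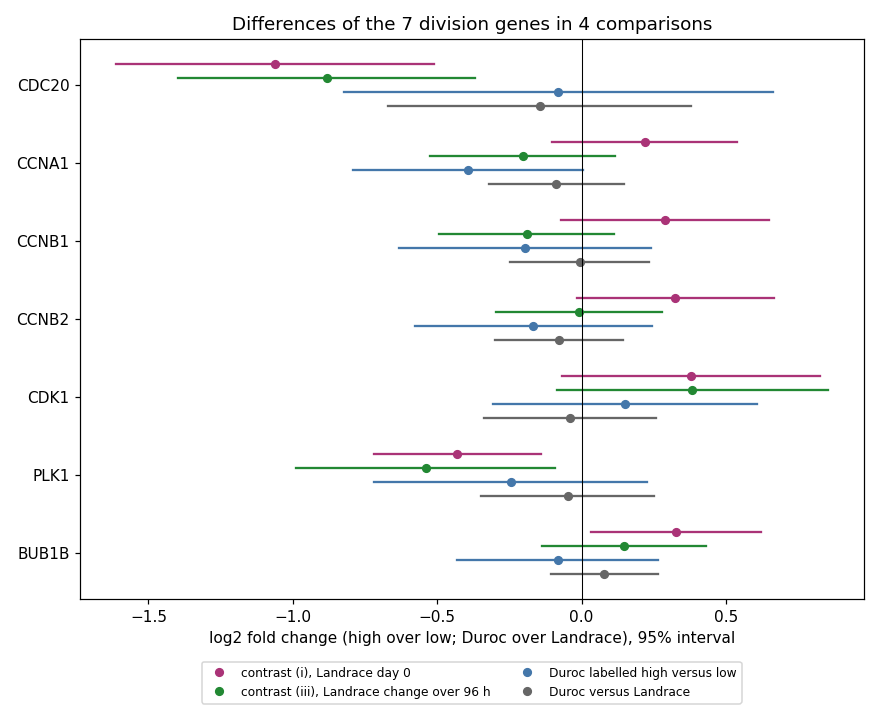
Log2 fold changes (points) with 95% intervals (lines) of the 7 members in each of 4 comparisons, as high over low, or Duroc over Landrace; the intervals of contrasts (i) and (iii) are shown for scale only, since these contrasts were used to choose the members. The CDC20 estimates of both Landrace contrasts lie at -1.06 and -0.88, and the intervals of the Duroc and breed comparisons all include 0.

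The Duroc boars were not used in the choice. CDC20 had 58.3, 29.0, 33.3, 72.7 and 67.1 CPM in D1, D2, D3, D4 and D5, labelled high, and 44.3, 46.3 and 76.8 CPM in D6, D7 and D9, labelled low. The groups overlapped throughout, since D2 and D3 were the lowest and D9 and D4 the highest, and the log2 fold change was -0.08 with a 95% interval of -0.82 to 0.66 (two-sided exact permutation test over boars, p = 0.75). The sign turned to 0.08 without D2, 0.02 without D3 and 0.29 without D9. PLK1 had 64.6, 53.7, 53.7, 88.3 and 74.0 CPM in the boars labelled high and 94.95, 61.4 and 86.2 CPM in those labelled low. These groups overlapped too, at a log2 fold change of -0.24 with an interval of -0.72 to 0.23 (exact permutation p = 0.286). With 1 boar left out, the PLK1 value ran from -0.42 without D7 to -0.14 without D9.

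Of the cyclins, CCNA1 had 83.6, 127.0, 87.9, 96.5 and 89.7 CPM in D1 to D5 and 166, 128 and 97.9 CPM in D6, D7 and D9. D2 was the only boar labelled high above D9, the lowest of those labelled low, and the log2 fold change was -0.39 with an interval of -0.79 to 0.01 (exact permutation p = 0.0714, where 0.0357 is the smallest p that 56 assignments allow). With 1 boar left out, that fold change ran from -0.53 without D9 to -0.22 without D6. CCNB1 lay between 69.5 and 131 CPM in the boars labelled high and between 81.1 and 123 CPM in those labelled low (log2 fold change -0.20, interval -0.63 to 0.24, exact permutation p = 0.429). CCNB2 lay between 142 and 246 CPM and between 165 and 247 CPM (log2 fold change -0.17, interval -0.58 to 0.25, exact permutation p = 0.393). D2 and D6, which bear opposite labels, were the highest Duroc boars for CCNB1 and CCNB2.

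CDK1 had 33.1, 60.6, 46.4, 42.0 and 40.4 CPM in D1 to D5 and 41.6, 51.5 and 29.9 CPM in D6, D7 and D9. It was highest in D2 and lowest in D9, with a log2 fold change of 0.15 and an interval of -0.31 to 0.61 (exact permutation p = 0.679). With 1 boar left out, that value ran from 0.0018 without D9 to 0.33 without D7. BUB1B had 77.2, 107, 96.0, 79.6 and 81.4 CPM in D1 to D5 and 106.0, 106.2 and 74.7 CPM in D6, D7 and D9. Both groups held high and low boars, and the log2 fold change was -0.08 with an interval of -0.43 to 0.27 (exact permutation p = 0.571). By the quasi-likelihood test of edgeR, 0 of the 7 members and 0 of all 13043 genes (0%) were called, the adjusted p of each member being 0.999985, beside 158 genes at an unadjusted p under 0.05 and 0 genes by either the likelihood ratio test or DESeq2. Whether any member's difference varied between the breeds was not tested.

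Between the breeds, the members stood at close levels. CDC20 ranged from 29.0 to 76.8 CPM with a median of 52.3 CPM in the 8 Duroc boars and from 24.7 to 92.6 CPM with a median of 63.3 CPM in the 13 Landrace boars, a log2 fold change of Duroc over Landrace of -0.15 with a 95% interval of -0.67 to 0.38. The permutation test over boars with 100000 resamples gave p = 0.669 for the 8 against 13 boars. The other members differed by less, from -0.09 for CCNA1 (interval -0.32 to 0.15, permutation p = 0.363) to 0.08 for BUB1B (interval -0.11 to 0.26, permutation p = 0.517), with permutation p between 0.446 and 0.837 for CCNB1, CCNB2, CDK1 and PLK1. The median levels in Duroc and Landrace boars were 97.2 and 112 CPM for CCNA1, 88.1 and 101 CPM for CCNB1, 180.2 and 204 CPM for CCNB2, 41.8 and 44.9 CPM for CDK1, 69.3 and 78.7 CPM for PLK1, and 88.7 and 83.0 CPM for BUB1B. By edgeR's quasi-likelihood test 355 of 12835 genes (2.77%) differed between the breeds and 0 of the 7 members did, the adjusted p of the members running from 0.960 to 0.999. Without L13, CDK1 turned from -0.04 to 0.03 and CDC20 moved to -0.21.

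Ordered by group mean, the level of CDC20 ran from 82.3 ± 7.60 CPM (SD) in the low group of contrast (i) through 72.1 ± 10.1 CPM in the low group of contrast (iii), 55.8 ± 18.2 CPM in the Duroc boars labelled low, 52.1 ± 19.9 CPM in those labelled high and 41.3 ± 17.2 CPM in the high boars of contrast (i) to 39.5 ± 12.8 CPM in those of contrast (iii). Each neighbouring pair in this order overlapped in its single boars. CDC20 also varied more than the other members. With levels centred on the breed means, the SD over 21 libraries of its log2 CPM was 0.60, larger than that of 96.6% of the genes with at least 5 CPM in every library, whose median was 0.29. That SD was 0.35 for CDK1, 0.33 for PLK1, 0.29 for CCNB1, 0.28 for CCNA1, 0.27 for CCNB2 and 0.22 for BUB1B. Part of the CDC20 spread is the difference that named it.

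**Figure D3:**
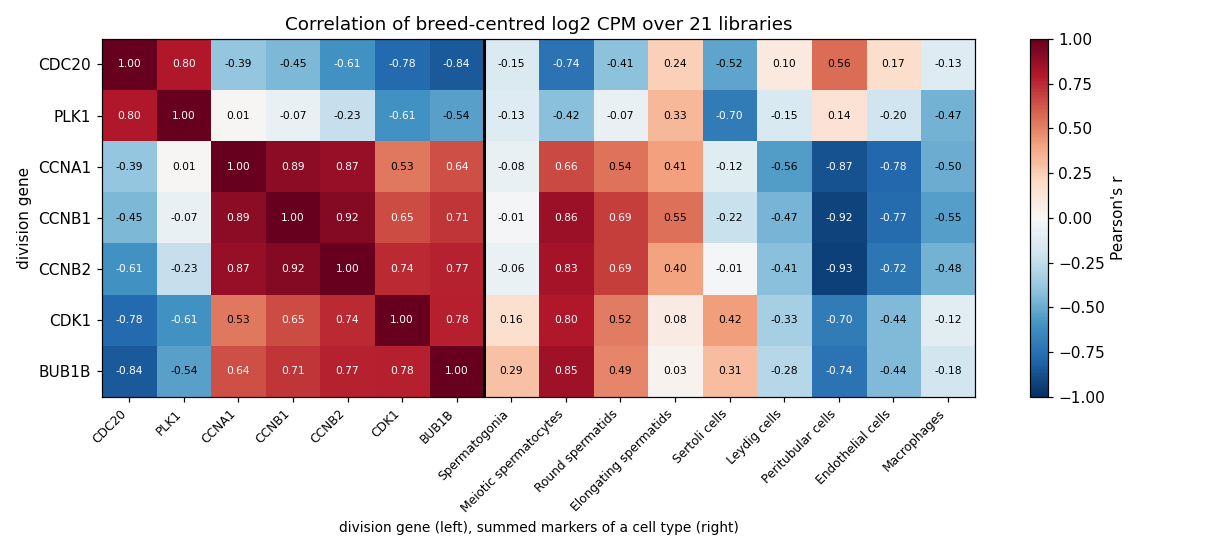
Pearson's r (colour and number) between breed-centred log2 CPM of the 7 members (rows) and the same members or the summed markers of 9 cell types (columns, right of the black line) over 21 libraries. CDC20 and PLK1 have r = 0.80 with each other, and CCNA1, CCNB1, CCNB2, CDK1 and BUB1B are all positively correlated among themselves.

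Across the 21 libraries the members fell into a pair and a group of 5. CDC20 and PLK1 varied together over boars, with Pearson's r = 0.80 (0.85 in Landrace, 0.71 in Duroc, 0.75 over the 20 libraries other than L13). The A and B cyclins formed the tightest set, with r = 0.92 between CCNB1 and CCNB2, 0.89 between CCNA1 and CCNB1 and 0.87 between CCNA1 and CCNB2. CDK1 followed CCNB2 at r = 0.74 and BUB1B at r = 0.78. CDC20 ran against BUB1B at r = -0.84 (-0.85 in Landrace, -0.84 in Duroc) and against CDK1 at r = -0.78, while PLK1 bore almost no relation to CCNA1 (r = 0.01) or CCNB1 (r = -0.07). All values of a library share its depth, scaling and tissue makeup, the set of genes was chosen with the CDC20 level known, and the correlations are given as a description without a test.

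The ratio of CDC20 to CDK1 counts set the opposite courses side by side. It ranged from 0.367 in L13 to 3.50 in L3. In contrast (i) it was 1.66 to 3.50 in the low boars and 0.386 to 1.46 in the high boars, and in contrast (iii) 1.41 to 2.53 and 0.367 to 1.23. In both contrasts the groups did not overlap. CDC20 alone did not overlap in either and was named for its lower level there, so the ratio adds no test. In the Duroc boars the ratio ran from 0.478 to 1.76 in those labelled high and from 0.898 to 2.57 in those labelled low, with wide overlap.

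The summed markers of several cell types moved with some members, and the part of cell types in the results was not tested. Spermatogonia markers hardly did, at r = -0.15 with CDC20 to 0.29 with BUB1B. For round spermatids r ran from -0.41 with CDC20 to 0.69 with CCNB2. For endothelial cells it ran from -0.78 with CCNA1 to 0.17 with CDC20, and for Leydig cells from -0.56 with CCNA1 to 0.10 with CDC20. The summed spermatocyte markers, of which 7 of 8 could be matched, correlated with CCNB1 at r = 0.86, BUB1B at 0.85, CCNB2 at 0.83, CDK1 at 0.80 and CCNA1 at 0.66, and with CDC20 at r = -0.74 and PLK1 at -0.42. Their sum was 1395 to 2129 CPM in the high and 998 to 1311 CPM in the low group of contrast (i), without overlap, 1278 to 1490 CPM against 1096 to 1521 CPM in contrast (iii), and 1075 to 2001 CPM against 991 to 1585 CPM in the Duroc boars labelled high and low. Without L13 the sum correlated with CDC20 at r = -0.87 and with CDK1 at 0.92. The summed markers of peritubular cells, the contractile cells around the tubules (5 of 5 matched), ran the other way, at r = -0.93 with CCNB2, -0.92 with CCNB1, -0.87 with CCNA1 and 0.56 with CDC20. Their sum was 17.6 to 63.0 CPM in the high and 47.9 to 103 CPM in the low group of contrast (i), 59.3 to 63.0 CPM against 43.0 to 88.5 CPM in contrast (iii), and 29.4 to 108 CPM against 26.1 to 83.1 CPM in the Duroc boars labelled high and low. The summed elongating spermatid markers (6 of 7 matched) were 6183 CPM in L13, 7598 CPM in L15 and 11830 CPM in L7, the high boars of contrast (iii), against 10260 to 14214 CPM in its low boars, so that L13 and L15 lay below all 4 of those. The Sertoli cell sum correlated with PLK1 at r = -0.70, and at -0.49 without L13.

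**Figure D4:**
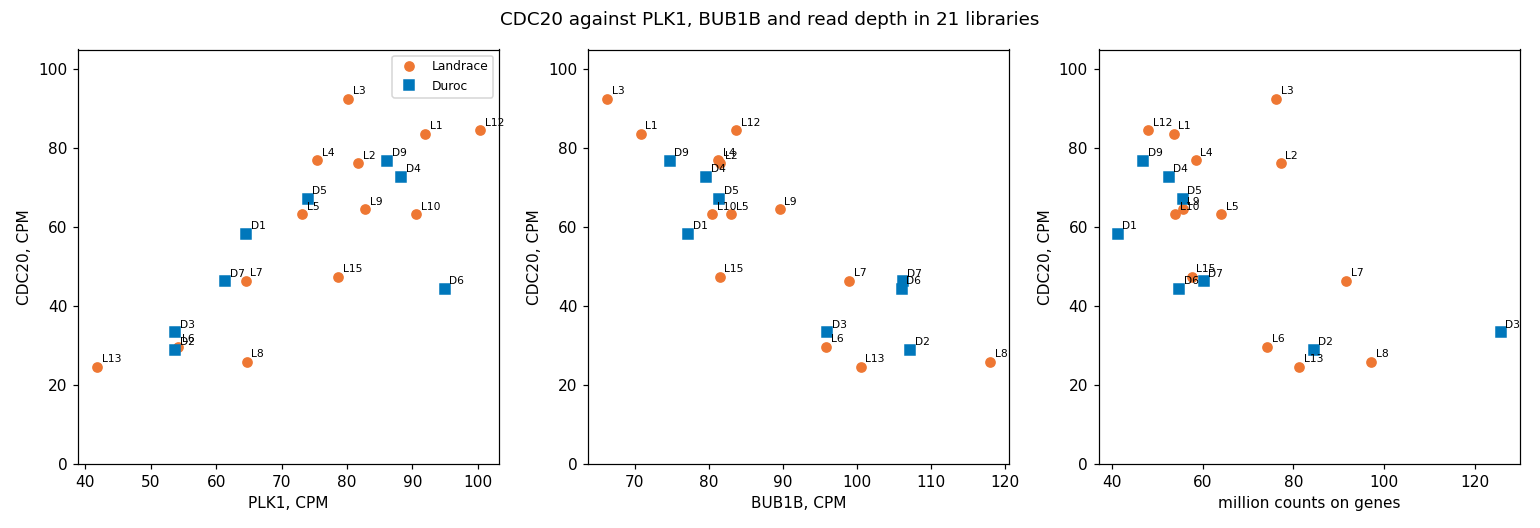
CDC20 in TMM-normalized CPM (vertical axis) against PLK1 in CPM, BUB1B in CPM and read depth (horizontal axes, left to right) for 13 Landrace boars (orange circles) and 8 Duroc boars (blue squares), each labelled by boar. CDC20 is high where PLK1 is high and low where BUB1B is high, and the boars under 35 CPM (L6, L8, L13, D2 and D3) were sequenced to 74.2 M to 126 M counts.

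CDC20 was set against read depth in each breed. In the 8 Duroc boars its log2 CPM correlated with depth at Pearson's r = -0.75 (exact permutation p = 0.0359) and Spearman's rho = -0.74 (exact permutation p = 0.0458). Over the 2 relations tested in Duroc boars, the Benjamini-Hochberg adjusted exact permutation p was 0.0718 for r and 0.0916 for rho. In the 13 Landrace boars, whose CDC20 levels were used in the choice, the values are given without a test, at r = -0.62 and rho = -0.57. Without the pairs farthest from the median depth, r was -0.44 in Duroc (without D2 and D3) and -0.48 in Landrace (without L7 and L8). With the share of reads that matched no gene feature, r was -0.18 in Duroc (exact permutation p = 0.668) and -0.13 in Landrace. Without the pairs farthest from the median of that share, r was 0.02 in Duroc (without D1 and D3) and -0.53 in Landrace (without L3 and L7). The high groups of contrasts (i) and (iii) were the more deeply sequenced ones, and the part of depth in the CDC20 difference was not tested.

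CDC20 shared its course with many genes. Of 8490 other genes with at least 5 CPM in every library, 500 (5.89%) had r of at least 0.9 with CDC20 in breed-centred log2 CPM over 21 libraries and 254 (2.99%) had r of -0.9 or below. The 5 most alike were CYTH2, GIT1, PCSK4, RFX2 and KIF21B, each at r = 0.98. PCSK4, a protease known from germ cells, spanned 5.95 to 36.6 CPM over the 21 libraries. RFX2, a transcription factor of spermatogenesis, spanned 25.8 to 94.2 CPM. CYTH2 ranged from 15.4 to 52.9 CPM, GIT1 from 36.8 to 186 CPM and KIF21B, a kinesin, from 7.82 to 62.6 CPM. Each of the 5 kept r of at least 0.97 within both breeds.

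Other genes of the division machinery were taken from 5 lists with 77 genes, of which 67 could be matched and 65 were tested. In contrast (i), 4 passed higher and 9 lower in the high group, 13 of 65 or 20%, beside 20.7% of all genes tested. None (0 of 65) passed in contrast (iii), the Duroc comparison or the breed comparison by edgeR, where DESeq2 called 1, 0 and 1 of them. The list medians ran from -0.21 to 0.16 in contrast (iii), from -0.12 to 0.05 in the Duroc comparison and from -0.07 to 0.02 between the breeds. Without L3, and likewise without L6, 0 of the 65 passed in contrast (i), and 7 passed without L1 or without L8, 26 without L5, 8 with a filter at 5 CPM and 23 by DESeq2.

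Among 17 partners and regulators of cyclin-dependent kinases, 1 was higher and 2 lower in contrast (i), with a median log2 fold change of 0.25 beside 0.03 over all genes tested. WEE1, a kinase that holds CDK1 off, rose from 46.9 ± 5.61 CPM (SD, n = 4) in the low group to 76.7 ± 16.4 CPM in the high group, a log2 fold change of 0.64 ± 0.16 (SE, adjusted p = 0.0230 by edgeR). PKMYT1, a kinase of the same kind, fell by 1.45 on the log2 scale, from 3.54 to 1.36 CPM (edgeR adjusted p = 0.0208). CDC25B, a phosphatase that turns CDK1 on, fell by 0.79, from 29.4 to 17.8 CPM (edgeR adjusted p = 0.0258). The inhibitory kinases WEE1 and PKMYT1 thus differed in opposite directions. PKMYT1 lay near the filter of 1 CPM in the high boars, at 0.89 to 1.85 CPM. WEE1 and CDC25B each lost the call in 3 of the 8 fits without 1 boar, and PKMYT1 in 2.

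Of 17 tested genes of the anaphase-promoting complex, 1 was higher and 3 were lower, around a median of 0.33. CDC27, a core subunit, rose from 232 ± 30.7 to 346 ± 70.5 CPM (edgeR adjusted p = 0.0379), although it passed in 2 of the 8 fits that leave out 1 boar. UBE2S, the enzyme that extends ubiquitin chains for the complex, fell by 1.44 on the log2 scale, from 18.2 to 7.02 CPM (edgeR adjusted p = 0.0208). ANAPC2, its cullin subunit, fell by 1.38, from 6.40 to 2.57 CPM (edgeR adjusted p = 0.0273), and lost the call in 4 of the 8 fits. Subunits of this complex thus stood on both sides, with CDC27 higher and ANAPC2 lower in the same boars.

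In the spindle checkpoint list, 1 of 11 genes was higher and 1 lower, around a median of 0.27. TTK, the checkpoint kinase upstream of the others, rose from 233 ± 48.8 to 371 ± 90.3 CPM (edgeR adjusted p = 0.0415) but lost the call in 5 of the 8 fits without 1 boar, and MAD1L1, a checkpoint protein of the kinetochore, fell by 0.999 on the log2 scale, from 4.62 to 2.42 CPM (edgeR adjusted p = 0.0246). Of 11 partners of aurora and polo kinases, with a median of 0.17, INCENP was the 1 that passed, a scaffold of the aurora B kinase, which fell by 1.08, from 8.79 to 4.34 CPM (edgeR adjusted p = 0.0209). Among 9 genes of chromosome separation and spindle motors, 1 was higher and 2 lower around a median of 0.37. CENPE, a kinesin at the kinetochore, rose from 56.5 ± 16.3 to 95.2 ± 12.04 CPM (edgeR adjusted p = 0.0358), and likewise lost the call in 5 of these 8 fits. ESPL1, the protease that cuts cohesin, fell by 1.04, from 45.6 to 23.2 CPM (edgeR adjusted p = 0.0208), and KIF2C, a kinesin that takes microtubules apart, fell by 0.47, from 279.7 to 212 CPM (edgeR adjusted p = 0.0345), and passed in 2 of the 8 fits without 1 boar. TTK, CENPE and CDC27 lost the call when libraries were scaled by size only.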

How the data were processed

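The authors sequenced testis RNA of each boar as 100 bp single reads from stranded libraries, trimmed with Trimmomatic 0.36, aligned to Sscrofa11.1 with STAR and counted per gene of Ensembl release 90 with HTSeq. The deposited values are raw read counts for 25880 genes, 1 file per boar. Between 21.5% and 30.2% of reads matched no gene feature and 5.83% to 8.28% were not unique, and these HTSeq summary rows were left out. Pairs of boars within a group (34) had a chi-square per degree of freedom of 45.9 to 288, so none was a duplicate.

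The software was edgeR 4.0.16 on R 4.3.3, with DESeq2 1.42.0 and limma 3.58.1 beside it, and SciPy 1.17.1 for permutation tests. Levels are CPM after TMM normalization over all 21 libraries, and log2 CPM used a prior count of 1. Each comparison was fitted on its own boars, with genes at 1 CPM or more in at least 0.5 of the libraries, by the quasi-likelihood test of edgeR, adjusted by Benjamini-Hochberg over all genes, at a threshold of 0.05. The study's own test, a likelihood ratio test (edgeR 3.12.1 per the labels), was an alternative beside DESeq2, other scaling, filters, a robust fit and leaving out boars, and the breed fit and correlations without L13 were chosen after seeing the data. Standard errors come from the log2 fold change and its F statistic. The fits were checked on simulated counts with known changes. An identifier table named 14857 of the identifiers. Levels per gene length were not computed, since no exon lengths were at hand, and levels are not compared between genes.

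The members, gene lists, cell type markers and tests were chosen with earlier results of these data known. Named genes are all members, at most 2 called genes per list at either end of the log2 fold change, and the 5 genes most correlated with CDC20. P-values measure the spread between boars.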

Additional observations from a re-analysis of the deposited data

How the results depend on the processing

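Of the values under the alternatives for single genes and for the other division genes as a group, 7 were classed as turned in sign and 52 as having lost their call. A further 18 were classed as moved and 560 as unchanged. Members in contrasts (i) and (iii) were classed by size alone (within 1 SE), so their turns of sign and lost calls are not in the 7 and 52. CCNB2 in contrast (iii) turned from -0.0093 to 0.0057 with libraries scaled by size only, 0.064 without L15 and 0.063 without L10. Between the labelled Duroc groups, CDC20 turned to 0.08 without D2, 0.02 without D3 and 0.29 without D9, over a range of -0.25 to 0.29. Between the breeds, CCNB1 turned to 0.0037 with a filter at 5 CPM, CDC20 to 0.075 and PLK1 to 0.037 with the label as a covariate, and CDK1 to 0.028 without L13. The cause of these turns was not tested. In contrast (i), the number of genes called was 1661 with a filter at 5 CPM and ran from 1 to 3764 when 1 boar was left out. Members called there ran from 0 to 3 without 1 boar, and were 1 with no filter and 1 without L2 and L7. CDC20 lost its call without L3 and without L6, at log2 fold changes between -1.33 and -0.89 over the 8 fits. PLK1 lost its call in 6 of the 8 fits, at -0.52 to -0.35, and with no filter. In contrast (iii), the count of genes called was 64 with the likelihood ratio test, 116 with DESeq2, 1 with no filter and 0 to 2 without 1 boar, and of members called 1 with DESeq2. Of the Duroc boars, leaving out 1 gave 0 to 2 genes, the 2 without D9. Between the breeds, the count of 355 genes became 537 with DESeq2, 554 with no filter, 225 with a filter at 5 CPM and 204 with the day 0 boars only. No paired analysis was possible because the labels give the boars no numbers that groups share. The Landrace and Duroc groups hold 3 to 5 boars each, which limits the precision, and what depth adds to this was not tested.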
